A study of Capra hircus with 24 samples.

Results

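The 10 genes described here make up the core of the NF-kB system in papilla cells of cashmere goats (Capra hircus). They are the 5 subunits NFKB1, NFKB2, REL, RELA and RELB, and the IkB family members NFKBIA, NFKBIB and NFKBIZ. The others are the ubiquitin enzymes TNFAIP3 and BIRC3. They were chosen by gene symbol from the 20326 genes of the deposited tables, and all 10 were among the 13049 genes that passed the filter on low values. Dermal papilla cells are a cluster of mesenchymal cells that instructs the epithelium of the hair bulb. They came from secondary follicles, which make the fine cashmere fibre, or from primary follicles, the source of the coarse outer coat. Females and males were sampled in June, labelled early anagen, and in October, labelled anagen. This gave 8 groups of 3 libraries each: secondary and primary cells, June and October, female and male. The goats carried no stated genetic change or treatment, and their age is not given in the labels. The 3 libraries of a group are labelled as biological replicates, but it is not stated if they stand for different goats or cultures, or if the cells were grown before extraction. The p-values below therefore measure only the spread between these libraries. June and October differ in month and in growth stage at once, so these cannot be told apart.

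NF-kB is a family of dimeric transcription factors that wait in the cytoplasm, held by IkB proteins, until a receptor for a cytokine or a microbial product activates the IkB kinase complex. The kinase marks the IkB proteins for destruction, the dimers enter the nucleus, and among the first genes they switch on are their own inhibitors, so that NFKBIA and TNFAIP3 close a negative feedback loop. A slower, noncanonical branch runs through the kinase MAP3K14 and the processing of NFKB2, whose product pairs with RELB. In hair follicles the pathway is known as the route by which ectodysplasin signals during follicle formation.

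The values are a normalised expression signal, given without read counts, and log2 differences below are on the log2(value + 1) scale. Library totals ran from 959766 to 1045876, and libraries of 1 group correlated at 0.993 to 0.997 across genes against 0.954 to 0.992 between groups. The mesenchymal marker VIM was at 5950 or more in every library, and smooth muscle actin ACTA2 was at 4316 or more. Of the papilla markers, RSPO3 (134 to 283), VCAN (206 to 541) and LEF1 (8.06 to 14.7) were present in every library, SOX2 ran from 0 to 17.9 and WIF1 from 1.47 to 10.1, and CORIN and ALPL were at most 0.34 and 2.44. Of the 10 leukocyte markers that the files list, PTPRC and ITGAM reached at most 0.02 and 0.05, while CD14 lay between 4.16 and 15.7, CD68 between 2.92 and 24.8, and the other 6 at 2.4 or less. Of the 6 endothelial markers, CDH5 reached at most 0.03 and PECAM1, the highest, at most 2.08. The endothelial sum was 2.44 to 2.86 in secondary June males and 0.34 to 1.19 in the other groups. The mitochondrial share was 11.2 to 12.7% in secondary October females and 8.72 to 10.8% in the other groups. Sex could not be checked, because SRY was listed at 0 in all 24 libraries and the other 7 Y-linked genes sought were not in the list. In bulk RNA, fewer cells of a type and less RNA per cell cannot be told apart.

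NFKBIA (gene ID 102169137), the classical IkB alpha that holds RELA dimers in the cytoplasm and is itself a rapid NF-kB target, was far higher in primary cells of June females than in any other group. The 3 libraries of that group had 103, 104 and 109 (mean 105 ± 3.08, SD, n = 3). The other 21 libraries lay between 9.77 and 17.3. Secondary cells of June females had 11.4, 12.8 and 11.0, and primary cells of June males had 13.3, 13.5 and 12.4. Primary cells of October females had 13.1, 12.2 and 14.1. None of these 3 groups overlapped the high group.

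Secondary cells of June females were thus 8.99-fold lower in NFKBIA than primary cells (log2 difference -3.07, SE 0.0645, adjusted p = 5.61e-20 in limma). Among the 13049 genes tested, this was the 11th lowest difference. In primary females NFKBIA fell from June to October by 2.91 on the log2 scale, an 8.02-fold change (adjusted p = 1.11e-19) and the 12th lowest of 13049. June males were 8.06-fold lower than June females in primary cells (-2.92, adjusted p = 4.57e-20). All 3 comparisons use the same primary June female libraries, so they describe 1 high group and not 3 separate events.

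Outside that group NFKBIA moved over a narrow range. Secondary cells of June males (14.7, 17.3 and 15.5) and of October females (16.0, 15.6 and 15.2) came next, with overlapping ranges. The lowest were secondary October males (9.77, 10.8 and 10.6) and primary October males (10.7, 10.3 and 10.4), which also overlapped. In June males NFKBIA was higher in the secondary cells (log2 difference 0.26, 1.21-fold, adjusted p = 0.00171). In October females the difference was 0.23 (1.19-fold, adjusted p = 0.0063), and that call was lost when only the groups compared were fitted (adjusted p = 0.0717). In secondary cells it rose from June to October in females (0.39, adjusted p = 2.9e-05) and fell in males by 0.56 (adjusted p = 1.21e-07). In primary males it fell by 0.29 (adjusted p = 0.000549).

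NFKBIZ (gene ID 102186434), an atypical nuclear IkB protein that acts with NF-kB on secondary response genes such as IL6, had the same high group. Primary June females had 68.6, 74.3 and 69.0 (mean 70.6 ± 3.16, SD, n = 3). Secondary October females followed at 32.5, 30.1 and 30.5. At the low end, primary October females had 13.2, 13.3 and 12.2, and secondary June females had 17.5, 17.6 and 17.4. These 4 female groups did not overlap, while the male groups lay close together, between 18.9 and 25.7.

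In females the follicle difference of NFKBIZ therefore changed sign between the months. Secondary cells were 4.04-fold lower in June (log2 difference -1.95, SE 0.0632, adjusted p = 6.94e-17) and 2.4-fold higher in October (1.2, SE 0.0632, adjusted p = 4.32e-13). The test of this change, follicle type by month in females, gave 3.16 (adjusted p = 1.48e-17). In males secondary cells were slightly lower in June (-0.24, adjusted p = 0.00213), and October gave no call. From June to October NFKBIZ fell 5.47-fold in primary females (-2.36, adjusted p = 2.29e-18) and rose 1.78-fold in secondary females (0.79, adjusted p = 4.76e-10). In secondary males it was 0.19 higher (adjusted p = 0.0132), with ranges that overlapped. That call ended without secondary June male replicate 2 or 3 or secondary October male replicate 2 (adjusted p = 0.0602, 0.0966 and 0.0831), after rescaling to a common total (0.183) and with the compared groups alone (0.0517).

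**Figure D1:**
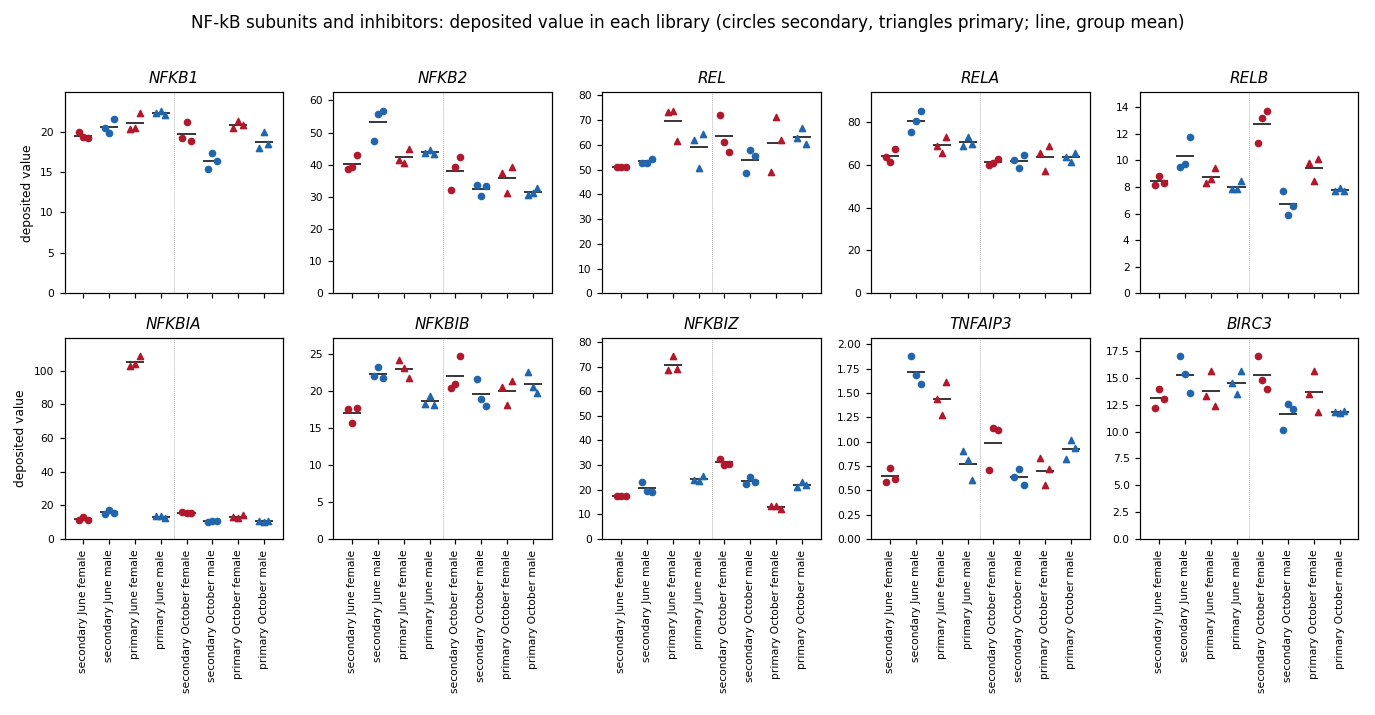
Deposited normalised value of each of the 10 genes (y axis, from 0) in the 24 libraries, by group (x axis); points are libraries (red females, blue males, circles secondary, triangles primary) and lines are means of 3. NFKBIA and NFKBIZ stand out in primary June females, at 103 to 109 and 68.6 to 74.3, while the subunits stay within a 1.89-fold range of group means.

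Other genes moved with this group, and their part in the NFKBIA and NFKBIZ results was not tested. The summed level of 24 immediate early genes, a list added after these values were seen, was 6193 to 6439 in primary June females and 2961 to 4711 in the other groups. FOSB, an AP-1 subunit induced within minutes of stimulation, had 180, 181 and 188 there, and its other group means ran from 11.8 to 45.8. FOS had 397, 387 and 374, with primary June males next at 242, 256 and 246. Of the 24 genes, 20 were lower and 1 higher in secondary than in primary June females, where 49.3% of all genes were called (24.3% lower). Leukocyte markers were highest in secondary June males, where 10 listed markers summed to 36.8 to 42.9. Primary June females followed at 24.98 to 27.07, above 13.4 to 24.3 in the remaining groups, and PTPRC was near 0 throughout. Keratinocyte markers summed to 4.66 to 5.67 in primary June females and to 284 to 312 in secondary October females, the group second in NFKBIZ. Papilla and dermal fibroblast markers summed to 30160 to 32260 in primary June females and to 20050 to 29970 in the other groups. Of 14 such markers tested, 9 were lower and 3 higher in secondary than in primary June females.

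TNFAIP3 (gene ID 102182977) encodes A20, a ubiquitin-editing enzyme that shuts off signalling from TNF and Toll-like receptors. Its values were low throughout, from 0.55 to 1.88, and reached 1 in 9 of 24 libraries. The highest values were in secondary June males (1.88, 1.69 and 1.59) and primary June females (1.44, 1.27 and 1.61), whose ranges overlapped each other and no other group. Secondary June females had 0.58, 0.73 and 0.62, and primary June males had 0.90, 0.81 and 0.61. The follicle difference in June therefore ran in opposite directions in the sexes, at -0.57 in females (2.24-fold lower, adjusted p = 3.57e-05) and 0.62 in males (2.22-fold higher, adjusted p = 7.92e-06). TNFAIP3 fell from June to October in secondary males by 0.73 (adjusted p = 8.21e-07) and in primary females by 0.52 (adjusted p = 9.94e-05). In secondary females it was 0.27 higher in October (adjusted p = 0.0225), with overlapping ranges. That call ended without secondary June female replicate 1 or 3 or secondary October female replicate 2 or 3 (adjusted p = 0.0591 to 0.106).

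NFKBIB (gene ID 102181421), the IkB beta protein that binds the same dimers as IkB alpha but responds less to NF-kB itself, varied over a small range, from 15.6 to 24.8. Primary June females had 24.2, 23.1 and 21.7 and secondary June males had 22.1, 23.2 and 21.8. The lowest group, secondary June females, had 17.6, 15.6 and 17.8 and overlapped no other group. Its June follicle differences had the signs of TNFAIP3, at -0.42 in females (1.35-fold lower, adjusted p = 0.000138) and 0.25 in males (1.2-fold higher, adjusted p = 0.00825). It rose from June to October in secondary females (0.35, adjusted p = 0.000696). Its small declines in secondary males (-0.19, adjusted p = 0.0465) and in primary females (-0.19, adjusted p = 0.0477) were lost under most alternatives. Leaving out 1 library ended the first in 5 of 6 cases, all but secondary October male replicate 1 (adjusted p = 0.0615 to 0.203). It ended the second in 4 of 6, all but replicate 3 of either group (0.0622 to 0.22).

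BIRC3 (gene ID 102173952), the ubiquitin ligase cIAP2 that joins TNF receptor complexes and restrains MAP3K14, lay between 10.1 and 17.0, and its group means differed by at most 1.32-fold. It gave no call between follicle types in either month or sex. It was lower in October than in June in secondary males, where the values went from 17.0, 15.3 and 13.6 to 10.1, 12.6 and 12.1 (log2 difference -0.37, adjusted p = 0.0032). Primary males went from 14.6, 13.5 and 15.6 to 11.9, 11.7 and 12.0 (-0.27, adjusted p = 0.0247). The ranges were apart in both pairs. The second call ended without primary June male replicate 1 or 3 or primary October male replicate 1 or 2 (adjusted p = 0.0528 to 0.101), and after rescaling (0.13).

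**Figure D2:**
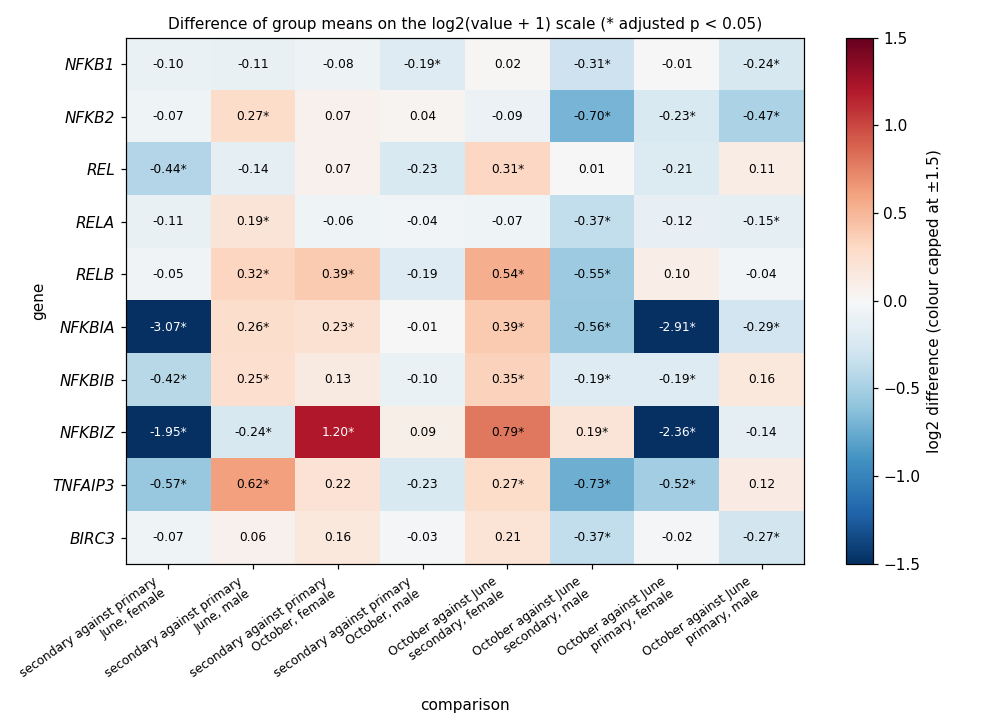
Log2 differences of the 10 genes (rows) in the 8 comparisons within 1 sex (columns), with colour for sign and size (capped at 1.5) and a star at an adjusted p under 0.05. The deepest cells are NFKBIA and NFKBIZ in secondary against primary June females (-3.07 and -1.95) and October against June in primary females (-2.91 and -2.36), which share the primary June female libraries.

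Among the subunits, group means differed by at most 1.32-fold for RELA and 1.89-fold for RELB, and none had a peak in primary June females like that of NFKBIA. RELA (gene ID 102174096), the p65 subunit with the main activation domain, was highest in secondary June males, at 75.4, 80.3 and 85.2. The other libraries lay between 57.2 and 72.8, all below that group. NFKB2 (gene ID 102191581), the p100 precursor of the noncanonical branch, was also highest there, at 47.4, 55.8 and 56.9. Its other libraries lay between 30.4 and 45.0, again with no overlap. Secondary males fell from June to October by 0.37 in RELA (1.3-fold, adjusted p = 1.77e-05) and by 0.70 in NFKB2 (1.64-fold, adjusted p = 4.96e-07). Leukocyte markers were also highest in secondary June males, with a sum of 36.8 to 42.9 against 13.4 to 27.1 in the other groups. So were endothelial markers, with a low sum of 2.44 to 2.86 against 0.34 to 1.19. The papilla and dermal fibroblast markers had their lowest sum there, at 20050 to 21060 against 23800 to 32260 in the other groups. Of 14 such markers tested, 7 were lower and 5 higher than in primary June males, where 59.6% of all genes were called (28.9% lower). The part of these markers in the RELA and NFKB2 values was not tested.

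Secondary cells of June males were above primary cells in NFKB2 (0.27, adjusted p = 0.011) and in RELA (0.19, adjusted p = 0.0114). Without secondary June male replicate 3 both calls ended, with smaller differences of 0.22 in NFKB2 and 0.14 in RELA (adjusted p = 0.0583 and 0.0736). The ranges of the 2 groups were apart in both genes. NFKB2 fell in primary males from 43.5, 44.7 and 43.4 to 30.5, 31.1 and 32.7 (-0.47, adjusted p = 0.000101). In primary females NFKB2 differed by -0.23 (adjusted p = 0.0342), a call that ended without primary June female replicate 1 or 3 or primary October female replicate 2 (0.0549, 0.128 and 0.212), with no filter (0.0548) and with the compared groups alone (0.0703). RELA in primary males differed by -0.15 (adjusted p = 0.0417). That call ended in 5 of 6 cases with 1 library left out, all but primary October male replicate 3 (0.0535 to 0.135), and with no filter (0.0549), median-of-ratios factors (0.0573) and rescaling (-0.06, 0.377).

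RELB (gene ID 102171147), the partner of processed NFKB2 and itself a target of NF-kB, had the widest range of the subunits and opposite month differences in the sexes. In secondary females it rose from 8.18, 8.81 and 8.29 in June to 11.3, 13.2 and 13.8 in October (log2 difference 0.54, 1.51-fold, adjusted p = 2.26e-05). In secondary males it fell from 9.48, 9.70 and 11.8 to 7.70, 5.92 and 6.58 (-0.55, 1.53-fold, adjusted p = 1.36e-05). The test of the difference between the sexes gave -1.09 (SE 0.125, adjusted p = 2.56e-07). Secondary cells exceeded primary cells in RELB in June males (0.32, adjusted p = 0.0034) and in October females (0.39, adjusted p = 0.00113). No call was made in primary cells between the months. In secondary females the keratinocyte marker sum also went from 3.67 to 4.71 in June to 284 to 312 in October, and the mitochondrial share from 8.89 to 9.45% to 11.2 to 12.7%. Their part in the RELB rise was not tested.

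NFKB1 (gene ID 102175660), the p105 precursor of the p50 subunit, was lowest in secondary October males (15.4, 17.3 and 16.4), and no other group overlapped it. It fell from June to October in secondary males by 0.31 (1.26-fold, adjusted p = 4.16e-05) and in primary males by 0.24 (1.19-fold, adjusted p = 0.000797), with no call in females. Secondary October males were below primary October males (-0.19, adjusted p = 0.0205). This call ended without secondary October male replicate 1 or primary October male replicate 2 (adjusted p = 0.122 and 0.125), and with the compared groups alone (0.0513).

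REL (gene ID 102169300), the c-Rel subunit best known from lymphocytes, was lower in secondary than in primary June females, at 50.9, 51.0 and 50.9 against 73.4, 73.8 and 61.7. This was a log2 difference of -0.44 (1.37-fold, adjusted p = 0.00195). It was the subunit with the largest spread within groups, from 48.8 to 71.3 in primary October females alone. REL was 0.31 higher in October than in June in secondary females (adjusted p = 0.023). That call ended without any 1 of the 3 June libraries or without secondary October female replicate 1 (adjusted p = 0.0502 to 0.14).

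Counted together, the 10 genes were called about as often as the genes at large in most comparisons, since the groups differed in a large part of all genes. Between secondary and primary June females, 5 of the 10 were lower and 0 higher, where 49.3% of all tested genes were called (25.0% higher, 24.3% lower). The median of the 10 was -0.26 and that of all tested genes was 0. In June males 6 were higher and 1 lower, where 59.6% of genes were called (30.7% higher, 28.9% lower), with medians of 0.22 and 0.01. With each library left out, 5 to 7 were called. Of all calls in that comparison 51.5% were higher, and 64.2% after rescaling to a common total. In October females 3 were higher and 0 lower, against 35.5% called (18.3% higher, 17.2% lower).

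In October males NFKB1 alone was called, against 18.5% of genes (10.9% higher, 7.63% lower), and the count became 0 without primary October male replicate 2 and 3 after rescaling. Of all calls there 58.7% were higher, and 26.9% after rescaling. From June to October in secondary females, 6 of 10 were higher and 0 lower, against 51.3% called (24.2% higher, 27.1% lower), with a median of 0.29. That count fell to 4 to 5 with each library left out. In secondary males 8 were lower and only NFKBIZ higher, against 56.5% called (25.3% higher, 31.2% lower), with a median of -0.37 beside -0.01 for all genes. With each library left out, 7 to 9 were called. Of all calls in secondary males 44.8% were higher, and 31.4% after rescaling.

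In primary cells 5 of 10 were lower and 0 higher from June to October in each sex, against 48.2% of genes called in females (22.7% higher, 25.6% lower) and 55.5% in males (26.0% higher, 29.5% lower). The female count became 3 without primary June female replicate 1, with no filter and with the compared groups alone. The male count became 3 without primary June male replicate 1 or 3 or primary October male replicate 1 or 2. After rescaling 3 were lower and 1 higher in males, with NFKBIB called higher (0.25, adjusted p = 0.0101), as it also was with the compared groups alone (0.16, adjusted p = 0.033). Of all calls in primary males 46.9% were higher, and 60.9% after rescaling. Each simple comparison shares libraries with others of the 8, so their counts are not independent.

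**Figure D3:**
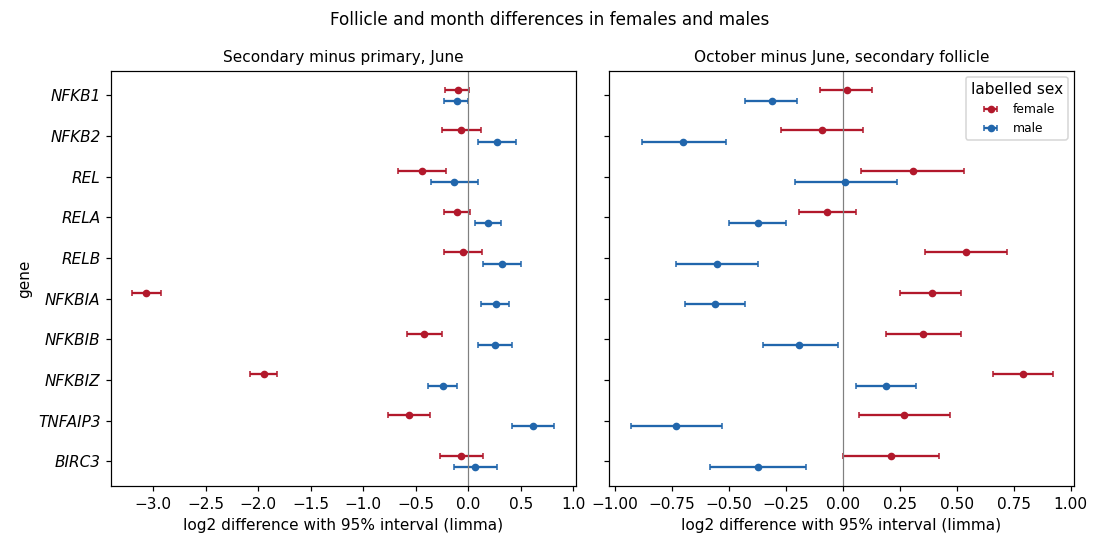
Log2 difference of each of the 10 genes with its 95% interval from limma (x axis) in females and males. The differences shown are secondary minus primary in June, and October minus June in secondary cells. In June the follicle difference of NFKBIA was -3.07 in females and 0.26 in males, and in secondary cells the October against June difference of RELB was 0.54 in females and -0.55 in males.

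By count of calls, the sexes differed most in how secondary cells changed from June to October. In this test, male minus female, 9 of 10 genes were lower and 0 higher, where 37.7% of genes were called (17.3% higher, 20.4% lower), and the median was -0.59 beside -0.02 for all genes. REL had the same sign but was not called (-0.29, adjusted p = 0.147). With the compared groups alone it was called (-0.29, adjusted p = 0.0435). Rescaling moved the median of all genes here to -0.12 and the share of higher calls from 45.8% to 28.3%, and 9 of the 10 were still lower. On the log2(value + 1) scale, RELB (-1.09), TNFAIP3 (-1, adjusted p = 2.86e-06) and NFKBIA (-0.95, adjusted p = 1.84e-08) had the largest differences. This scale understates changes of low genes, and TNFAIP3 ran from 0.55 to 1.88, so their order is not one of fold changes. The count was 9 with each library left out in turn.

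For secondary against primary cells in June, 7 of 10 had a higher difference in males and 0 a lower one, where 41.2% of genes were called (20.9% higher, 20.4% lower). With each library left out, 5 to 7 were called. NFKBIA (3.32, adjusted p = 4.9e-18), NFKBIZ (1.71, adjusted p = 4.61e-13) and TNFAIP3 (1.19, adjusted p = 2.37e-07) led. Of all calls 50.6% were higher, and 67.5% after rescaling. In October 4 were lower and 0 higher, against 26.7% called (13.7% higher, 13.0% lower), led by NFKBIZ (-1.12, adjusted p = 1.36e-09), and the count was 2 with the compared groups alone. Of all calls there 51.3% were higher, and 33.9% after rescaling. In primary cells from June to October 4 were higher and 1 lower, against 36.8% called (17.7% higher, 19.1% lower). That count became 3 without primary October male replicate 1, and the share of higher calls went from 48.2% to 60.8% after rescaling.

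The direct comparison of the sexes shows where these differences sat. In secondary June cells males were higher in 7 of 10 genes and lower in 0, against 39.5% called (20.9% higher, 18.6% lower), with TNFAIP3 2.67-fold (adjusted p = 2.22e-06) and NFKBIA 1.35-fold higher (adjusted p = 2.95e-05). In secondary October cells males were lower in 6 and higher in 0, against 40.4% called (19.5% higher, 20.9% lower), with RELB 1.89-fold (adjusted p = 6.61e-08) and NFKBIA 1.5-fold lower (adjusted p = 3.55e-07). Leaving out 1 library gave 6 to 7 calls in the first and 5 to 7 in the second, where 8 were lower after rescaling. Rescaling moved the share of higher calls from 52.8% to 67.4% in the first and from 48.3% to 36.3% in the second. In primary June cells males were lower in NFKBIA, NFKBIZ, TNFAIP3 and NFKBIB, against 45.4% called (23.1% higher, 22.3% lower), and the 5 subunits gave no call. In primary October cells NFKBIZ was 1.71-fold higher in males (adjusted p = 3.03e-09) and 3 genes were lower, against 33.6% called (15.8% higher, 17.8% lower). This count of 4 became 2 with the compared groups alone and without primary October female replicate 1 or 3 or primary October male replicate 1 or 3.

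Follicle type by month, the change of the secondary minus primary difference from June to October, was called in 6 of 10 genes in each sex. In females all 6 were higher (40.2% of genes called, 20.7% higher and 19.5% lower), with NFKBIA at 3.30 (adjusted p = 1.12e-17). In males NFKBIZ was higher and 5 were lower (43.9% called, 21.6% higher and 22.3% lower), with TNFAIP3 at -0.85 (adjusted p = 2.07e-05) and RELB at -0.51 (adjusted p = 0.00209). The male count was 4 to 7 with each library left out. Rescaling moved the median of all genes in males to -0.17 and the share of higher calls from 49.2% to 23.9%. After it 7 of the 10 were lower and 0 higher, and NFKBIZ was no longer called (0.16, adjusted p = 0.169).

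Of the ligands that start the pathway, few were measurable. TNF reached at most 0.24 and IL1B at most 0.11, both too low to test, and TNFSF11 was listed at 0. IL1A, interleukin-1 alpha, had its peak in the same group as NFKBIA, with 24.1, 21.9 and 22.3 in primary June females and group means of 1.04 to 3.54 elsewhere. Secondary June females were 7.4-fold lower (log2 difference -2.54, adjusted p = 4.39e-15). In primary females it fell 19.0-fold from June to October (-3.43, adjusted p = 2.98e-17). IL33, an alarmin of the same family, had a different pattern: it was low in secondary June cells of both sexes, at 1.11 to 1.59 in females and 0.40 to 0.64 in males, and every other library was at 5.41 or more. It rose from June to October in secondary cells, 7.56-fold in females (adjusted p = 4.76e-12) and 12.9-fold in males (adjusted p = 1.68e-12). IL18, a cytokine matured by inflammasomes, was the third ligand tested and ran from 29.2 to 104. It fell from June to October in secondary females (-0.74, adjusted p = 8.73e-06), secondary males (-1.30, adjusted p = 1.34e-09) and primary males (-0.96, adjusted p = 1.98e-07), and primary females gave no call. Secondary June males, at 104, 94.5 and 79.8, were above primary June males, at 59.6, 61.7 and 71.7 (0.52, adjusted p = 0.000436).

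Of 15 receptors tested, 11 were higher and 2 lower in secondary than in primary June males, where 59.6% of all genes were called (30.7% higher). In secondary males 11 fell from June to October with 0 higher, where 56.5% were called (31.2% lower). In June females 2 were higher and 5 lower, where 49.3% were called. TNFRSF1B, the second TNF receptor, was highest in secondary June males (18.2, 19.6 and 20.6), 2.02-fold above primary cells (0.94, adjusted p = 5.15e-12). IL1RAP, the co-receptor of interleukin-1, had 9.50, 9.84 and 10.1 in secondary June males and 4.09, 4.58 and 4.17 in secondary June females. It fell 2.37-fold in secondary males by October (-1.08, adjusted p = 1.3e-11). TLR4, the receptor for bacterial lipopolysaccharide, fell in the same comparison from 7.76, 8.30 and 7.36 to 2.70, 2.46 and 3.09 (-1.23, adjusted p = 2.76e-11). IL1R1 was lower in October females in secondary than in primary cells (-0.49, adjusted p = 1.62e-07). TNFRSF1A, the first TNF receptor, was lower in secondary than in primary June cells in females (-0.50, adjusted p = 6.86e-07) and males (-0.28, adjusted p = 0.000542). LTBR, the lymphotoxin receptor that feeds the noncanonical branch, fell in secondary males by 0.57 (adjusted p = 6.91e-08) and in primary females by 0.41 (adjusted p = 1.42e-05). CD40 was higher in secondary June cells of females (0.88, adjusted p = 0.000515) and males (0.74, adjusted p = 0.00171). TLR3 fell in secondary males (-1.30, adjusted p = 1.38e-09) and primary males (-1.07, adjusted p = 4.01e-08), and TLR2 was higher in secondary cells of June males (0.75, adjusted p = 9.25e-08) and October females (0.54, adjusted p = 2.61e-05). EDA2R lay between 0.95 and 2.33, and its calls between follicle types, in June males (0.36, adjusted p = 0.0333) and October females (0.43, adjusted p = 0.0226), each ended when either of a pair of libraries was left out (secondary June male replicate 1 or primary June male replicate 1, and secondary October female replicate 2 or primary October female replicate 1). EDAR, the ectodysplasin receptor, reached at most 0.02 and was not tested.

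Among 30 adaptors and kinases, 3 were higher and 10 lower in secondary than in primary June females, where 49.3% of all genes were called. In June males 4 were higher and 5 lower, where 59.6% were called. CHUK, IKBKB and IKBKG, the subunits of the IkB kinase complex, differed by at most 0.35 in size in the 8 comparisons. A difference of that size was called for NFKBIB between the months in secondary females (0.35, adjusted p = 0.000696). MAP3K8, which is held by the NFKB1 precursor and activates MAP kinases, was highest in primary June females (2.48, 3.24 and 3.47), and secondary cells were 4.22-fold lower (-1.23, adjusted p = 7.45e-09). MAP3K14, the kinase of the noncanonical branch, fell in males from June to October, by 0.80 in secondary cells (adjusted p = 1.34e-08) and by 0.69 in primary cells (adjusted p = 1.79e-07). IRAK1, a kinase below interleukin-1 and Toll-like receptors, was 2.21-fold higher in secondary than in primary June males (1.07, adjusted p = 1.68e-12). Between secondary and primary October cells, MALT1 differed by 0.39 in females (adjusted p = 0.000168) and TIRAP by -0.38 in males (adjusted p = 0.00119).

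Of 22 other inhibitors and regulators, 3 were higher and 9 lower in secondary than in primary June females, where 49.3% of all genes were called. ZC3H12A, an RNase that degrades transcripts of cytokines, was highest in primary June females at 18.6, 16.1 and 17.6, above 5.86 to 10.2 in the other libraries. Secondary June females were 2.73-fold lower (-1.32, adjusted p = 2.95e-13). NFKBIE, IkB epsilon, was 1.56-fold lower (-0.54, adjusted p = 2.28e-05). TNIP1, a partner of A20, was highest in secondary June males (57.2, 61.5 and 65.4) and fell there by 0.74 by October (adjusted p = 2.57e-10). BCL3, a nuclear IkB protein, fell from June to October in secondary females (-0.58, adjusted p = 0.000427), secondary males (-0.59, adjusted p = 0.000272) and primary females (-0.74, adjusted p = 2.99e-05). CYLD, a deubiquitinase, fell in primary males by 0.74 (adjusted p = 1.01e-07), and BIRC2, cIAP1, fell in secondary males by 0.30 (adjusted p = 0.00133). XIAP was lower in secondary June males than in primary ones (-0.67, adjusted p = 2.54e-05), and IRAK3 in secondary October females (-0.40, adjusted p = 0.00114). PELI1 was 0.22 higher in secondary October males (adjusted p = 0.0111), a call that ended without primary October male replicate 3 and after rescaling to a common total.

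**Figure D4:**
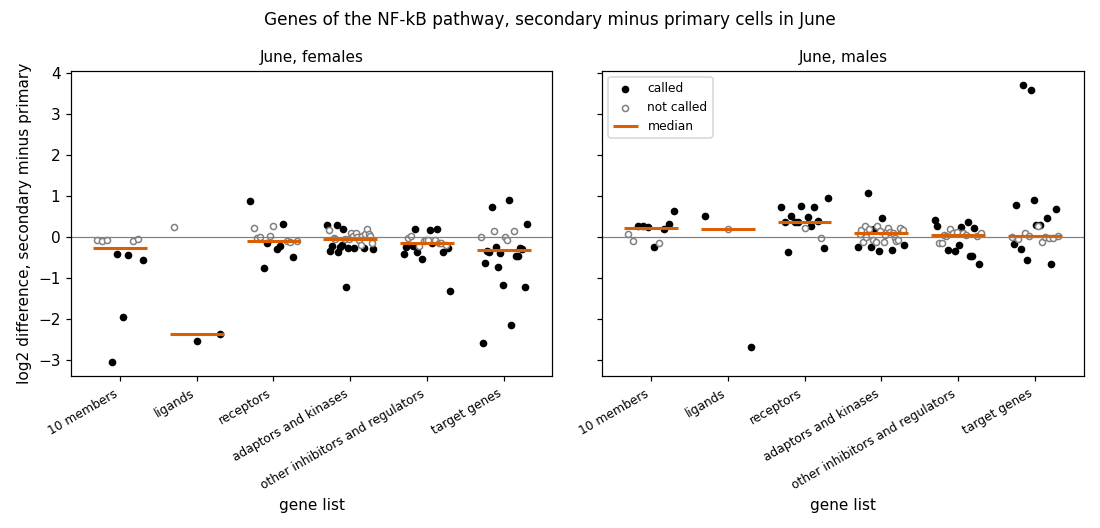
Log2 difference of secondary minus primary cells in June (y axis) for the 10 genes and the 5 pathway lists (x axis), females and males; filled points were called, open points were not, and bars are medians. The median of the target genes was -0.33 among females and 0.02 among males, and that of the receptors -0.10 and 0.37.

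Target genes of NF-kB, 22 tested, did not share a single high group. In secondary against primary June females 14 were lower and 3 higher (median -0.33, all genes 0), where 49.3% of all genes were called (24.3% lower). C3, the central complement protein, had 22.1, 23.8 and 21.9 in primary June females and 2.25 to 8.53 in the other libraries. Secondary June females were 7.75-fold lower (-2.59, adjusted p = 1.53e-17). PTGS2, the inducible cyclooxygenase, had 44.1, 45.9 and 39.2 there against 8.76, 9.08 and 8.60 in secondary June females (4.89-fold lower, adjusted p = 5.45e-18), but it was highest in secondary October males, at 64.5, 67.9 and 66.1.

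The chemokine CXCL8 and the cytokine IL6 instead peaked in secondary June males. CXCL8 had 176, 153 and 149 there, followed by secondary June females at 47.6, 45.2 and 42.9 and primary June females at 28.9, 26.4 and 25.3. It fell from June to October in all 4 comparisons, with log2 differences of -5.39 in secondary males, -3.69 in secondary females, -3.79 in primary females and -2.29 in primary males (adjusted p = 3.61e-20, 3.98e-17, 2.98e-17 and 1.18e-13). IL6 had 81.2, 82.3 and 73.0 in secondary June males and 6.42, 5.72 and 4.82 in primary June males, a 13.9-fold difference (3.59, adjusted p = 3.34e-15). ICAM1, an adhesion molecule, was highest in primary June males (8.19, 7.34 and 6.28) and fell by 2.15 there by October (adjusted p = 9.21e-15). SOD2, the mitochondrial superoxide dismutase, was also highest in primary June males (46.4, 43.3 and 46.6), 1.61-fold above secondary cells (adjusted p = 4.3e-09). MMP9, a gelatinase, had 4.78, 4.36 and 5.11 in secondary October females and at most 0.81 in any other library. CXCL10 was listed at 0, and the symbols CCL2 and VCAM1 were not in the list.

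**Figure D5:**
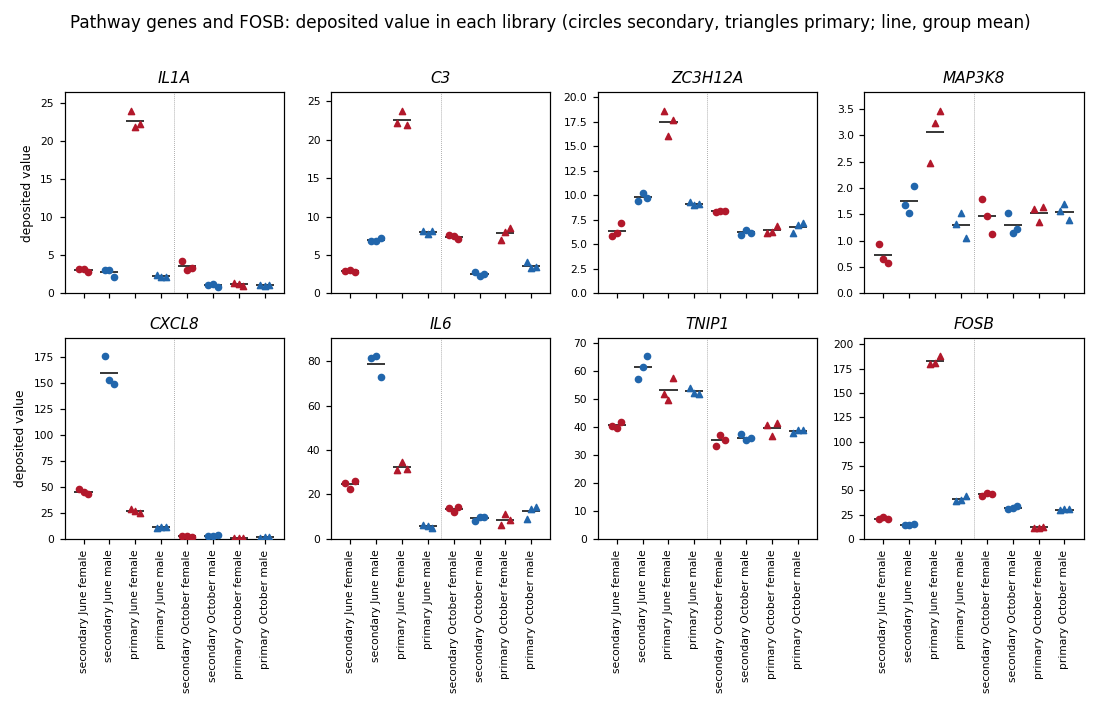
Deposited normalised value (y axis, from 0) of 7 pathway genes and FOSB in the 24 libraries, by group (x axis); points are libraries (red females, blue males, circles secondary, triangles primary) and lines are means of 3. IL1A, C3, ZC3H12A, MAP3K8 and FOSB are highest in primary June females, and CXCL8, IL6 and TNIP1 in secondary June males.

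As a description over the 8 group means, the genes most like NFKBIA were GMFG (r = 0.99), DNASE1L3 (0.98) and RNF19B (0.97). GMFG averaged 16.3 in primary June females and at most 0.73 in any other group, so this likeness rests on 1 group. NFKBIZ was most like FOSB (0.97), LOC102169353 (0.95) and CCNL1 (0.95). Each of these also had its highest mean in primary June females. The means there and the next highest were 183 and 45.8 in FOSB, 64.9 and 56.4 in LOC102169353, and 110 and 74.3 in CCNL1. NFKB2 was most like PDE8A (0.99) and RELA most like WIPI2 (0.97). The closest to the other members were ZFYVE16 for NFKB1 (0.96), LOC102184304 for REL (0.98), PPFIBP2 for RELB (0.95), SASH1 for NFKBIB (0.95), IL4R for TNFAIP3 (0.93) and VAX2 for BIRC3 (0.93). Among the 10 genes NFKB2 and RELA had r = 0.89, and 0.88 without primary June females. NFKBIA and NFKBIZ had r = 0.86 over the 8 groups and 0.17 over the 7 others. NFKBIA and BIRC3 had 0.25 over the 8 and 0.97 over the 7. These points share their libraries and scaling.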

How the data were processed

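RNA of 24 libraries was extracted with RNAiso Plus and sequenced in pairs from an NEB Next Ultra kit, per the labels' protocols. Per the submitters' processing notes, kallisto 0.46.1 and sleuth 0.30.0 were used, with no role given. For the build, the transcript set and the filters, a statement is not given in the sources used here. Deposited values are a normalised signal with 2 decimals, not counts, so the depth is unknown, no counting interval can be given, and levels are not compared between genes. A RefSeq gene table (assembly ARS1.2), used for names only, held 20294 of the 20326 gene IDs.

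A gene was kept where 3 or more libraries had a value of 1 or above. Values were set to log2(value + 1), a pseudocount that understates changes of low genes, and limma 3.58.1 (statmod 1.5.0, R 4.3.3) was fitted with 8 group means, variance trend and robust estimation. P-values were Benjamini-Hochberg adjusted within each of 18 comparisons, and 0.05 was the threshold for a call. The script was first tested on simulated data. Fold values are ratios of group means. The members and lists were chosen with earlier results of these data known. Genes named are the members, pathway genes fixed by name and, in each list, the called gene with the largest difference in each comparison within 1 sex. Likeness is Pearson's r of group means, among genes with a mean of at least 5 in a group. Alternatives were a pseudocount of 0.1, no filter, rescaling, median-of-ratios factors, no robust estimation, the compared groups alone, a replicate block and each library left out.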

Additional observations from a re-analysis of the deposited data

Results flagged for a closer look

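Tests of a difference between groups under the same contrast were called in 37 cases over the 10 genes, and all values here are on the log2 scale. For the change of the secondary minus primary difference from June to October, females gave 3.30 in NFKBIA, 3.16 in NFKBIZ, 0.79 in TNFAIP3, 0.55 in NFKBIB, 0.51 in REL and 0.44 in RELB. Males gave -0.85 in TNFAIP3, -0.51 in RELB, -0.35 in NFKBIB, -0.27 in NFKBIA, -0.22 in RELA and 0.33 in NFKBIZ.

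For the male minus female difference of secondary against primary cells in June, the values were 3.32 in NFKBIA, 1.71 in NFKBIZ, 1.19 in TNFAIP3, 0.67 in NFKBIB, 0.37 in RELB, 0.34 in NFKB2 and 0.29 in RELA. In October they were -1.12 in NFKBIZ, -0.58 in RELB, -0.46 in TNFAIP3 and -0.25 in NFKBIA. For October against June in secondary cells they were -1.09 in RELB, -1 in TNFAIP3, -0.95 in NFKBIA, -0.61 in NFKB2, -0.60 in NFKBIZ, -0.58 in BIRC3, -0.54 in NFKBIB, -0.33 in NFKB1 and -0.30 in RELA. In primary cells they were 2.62 in NFKBIA, 2.22 in NFKBIZ, 0.64 in TNFAIP3, 0.35 in NFKBIB and -0.23 in NFKB1. The 6 values of 1.71 or more, in NFKBIA and NFKBIZ, all include the primary June female libraries. Some of the smaller calls ended when 1 library was left out. For NFKBIA in October (-0.25) this held in 10 of 12 cases, all but secondary October male replicate 2 and primary October female replicate 3 (adjusted p = 0.0538 to 0.126). For RELA by month in males (-0.22) it held in 8 of 12, all but secondary June male replicate 1, primary June male replicate 2, secondary October male replicate 3 and primary October male replicate 2 (0.0541 to 0.116). For NFKB2 in June (0.34) it held in 7 of 12, all but secondary June female replicate 3, secondary June male replicate 1, primary June female replicates 1 and 2 and primary June male replicate 2 (0.0575 to 0.0874). For NFKB1 in primary cells (-0.23) it held without primary June female replicate 1 or 2 or primary October male replicate 1 or 3 (0.0545 to 0.0695). For NFKBIA by month in males (-0.27) it held without secondary June male replicate 2, primary June male replicate 3 or secondary October male replicate 1 (0.0586 to 0.0766). For RELB in June (0.37) it held without secondary June male replicate 3 or primary June female replicate 3 (0.0763 and 0.056), and for NFKBIB in primary cells (0.35) without primary October male replicate 1 (0.0512). With the compared groups alone, TNFAIP3 (-0.46) and NFKBIA (-0.25) in October were no longer called (0.0508 and 0.0792). With no filter, RELA by month in males, NFKB2 in June and NFKBIA in October were no longer called (0.052, 0.05 and 0.0559), and with median-of-ratios factors RELA by month in males and NFKBIA in October (0.0588 and 0.0562). After rescaling, NFKB1 in primary cells (-0.16, 0.117) and NFKBIZ by month in males (0.16, 0.169) were no longer called.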

How the results depend on the processing

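No result changed direction past the threshold under any alternative run. The number of the 10 genes called moved by over 1.5 times in a few comparisons. Between secondary and primary October males it was 1, 3 after rescaling, and 0 to 1 with each library left out. From June to October in primary females it was 5, 3 with no filter or with the compared groups alone, and 3 to 6 with each library left out. In primary males it was 5, and 3 to 5 with each library left out. For the sex difference of the follicle contrast in October it was 4, and 2 with the compared groups alone. For that of the month contrast in primary cells it was 5, and 3 to 7 with each library left out. Between primary October males and females it was 4, 2 with the compared groups alone and 2 to 4 with each library left out. The cause was not tested. Over all genes, secondary against primary October females gave 4628 calls, and 2686 with the compared groups alone.

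With the replicate number as a block, NFKB2 was called between secondary October males and females (-0.22, adjusted p = 0.026) and no other call of the 10 genes changed. The numbers do not pair the libraries: deviations of same-numbered libraries correlated over 0.1 in 7 of 24 pairs (r = -0.28 to 0.29), with all 3 pairs over it in 0 of 8 comparisons. Of 180 member results, a pseudocount of 0.1 and no robust estimation changed 0 calls. Depth is unknown, and TNFAIP3, which reached 1 in 9 libraries, is the member most limited by it.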
